A study of Rattus norvegicus with 15 samples.

Results

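The 100 array probes whose signals followed most closely that of Alas2, the gene for the red-cell form of the enzyme that starts heme synthesis, were examined in rat olfactory epithelium. They were chosen by their Pearson correlation (r) with the Alas2 probe over 15 arrays, among 4167 probes that were well above background on all 15 arrays and had a standard deviation (SD) of at least 0.3 on the log2 scale. The arrays carried 41012 probes in all, of which 25133 were well above background throughout. Because r chose the probes, the values of r and of the slopes below describe the choice and were not tested. A current gene symbol was found for 59 of the 100 probes, which stood for 56 genes, and the other 41 keep the name that the array gave them.

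The tissue came from 8 Brown Norway rats aged 6 weeks, 4 males (rats 1, 2, 5 and 6) and 4 females (rats 3, 4, 7 and 8), and the labels name no treatment. They came from 2 suppliers, but the labels give neither the supplier of each rat nor the side that a letter stands for. The study's methods name both only for the sample left out, and neither was used. The nostrils, called A and B, gave 1 array each, except that male 1 lacked nostril B. All values are log2 of the signal over the median signal of the array, so that a difference of 1 is a doubling. The median signal ranged from 57.4 to 83.0 intensity units and the number of probes well above background from 26233 to 28741, and over the 15 arrays these had r of -0.287 and -0.273 with Alas2. The 13 probes of mature olfactory neurons that were well above background on all arrays, such as those of Omp and Cnga2, had a summed level of 10.70 to 11.06 in males and 10.74 to 11.10 in females, with r of -0.103 with Alas2. The arrays lay on 4 slides, with male 1, male 2 and nostril A of female 3 on slide 1, nostril B of female 3 and female 4 on slide 2, males 5 and 6 on slide 3, and females 7 and 8 on slide 4. In RNA from a whole tissue, fewer cells of a type and less RNA per cell cannot be told apart.

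Red cells carry oxygen on hemoglobin, a protein of alpha and beta globin chains that each hold a heme group. Young red cells, or reticulocytes, have lost the nucleus but still hold messenger RNA for globins, heme enzymes and membrane proteins, which they lose as they mature in the blood. Their precursors in the bone marrow are driven by transcription factors such as Gata1 and Klf1. Blood vessels run below the olfactory epithelium, and the turbinate bones that carry it can hold marrow.

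Alas2 itself had rat means of 8.51, 6.27, 8.80 and 9.68 in males 1, 2, 5 and 6, and of 5.30, 8.77, 5.08 and 6.37 in females 3, 4, 7 and 8. Rats 1, 4, 5 and 6 were thus high and rats 2, 3, 7 and 8 low, and both sexes had rats of each kind. In descending order the largest step, 2.13, lay between male 1 and female 8. The steps between male 5 and female 4 (0.03), female 4 and male 1 (0.26), female 8 and male 2 (0.10), and female 3 and female 7 (0.22) were smaller than the SD between the nostrils of a rat, 0.43. The lowest array was nostril B of female 7 at 4.38 and the highest nostril A of male 6 at 9.69, a 39.9-fold range. The SD of the 8 rat means was 1.79, or 4.12 times that between the nostrils of a rat. For the 100 probes the median of this ratio was 2.58, against 1.15 for all 4167 probes, which is a description, since the choice used the same arrays.

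**Figure D1:**
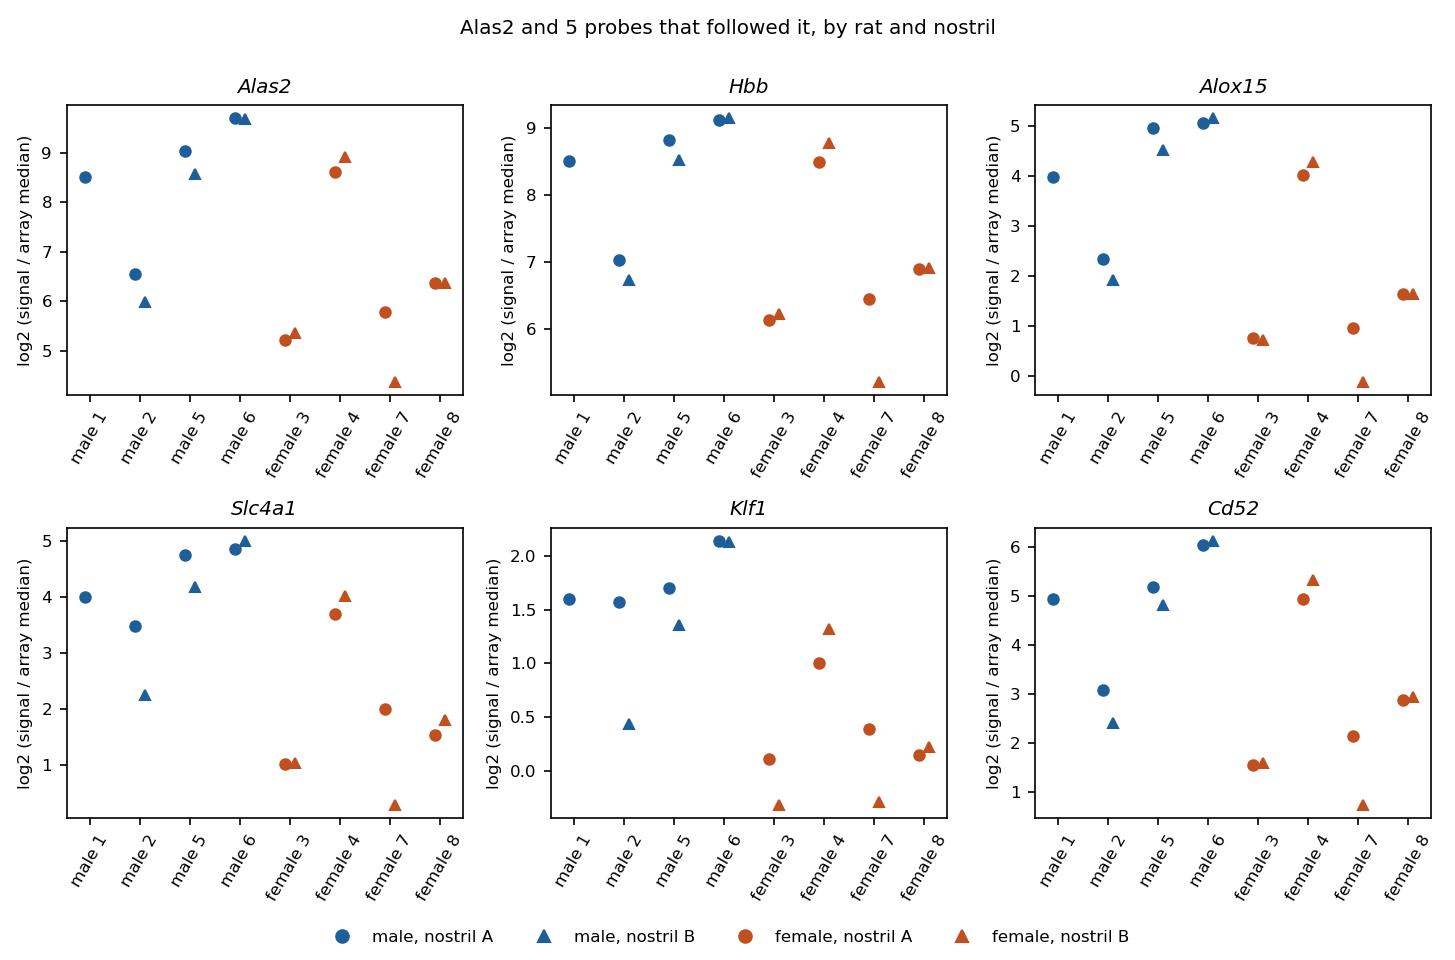
Signals of Alas2 and of 5 of the 100 probes (Hbb, Alox15, Slc4a1, Klf1 and Cd52) on each of the 15 arrays, as log2 of the signal over the array median, by rat; circles are nostril A and triangles nostril B, blue is male and orange female. In each panel male 6 was the highest rat by its mean, and for Alas2 the values ran from 4.38 in nostril B of female 7 to 9.69 in nostril A of male 6.

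The 100 probes had r from 0.688 to 0.998 with a median of 0.880, whereas the median r was 0.015 over the 4167 probes and -0.047 over the 25133. In 21 of them r was at least 0.95, and in 66 at least 0.8. The slope on Alas2, in log2 units per log2 unit of Alas2, ran from 0.118 to 1.020 with a median of 0.257. Among the 100, Alox15 alone had a slope above 1, and 12 probes had a slope of at least 0.5. Over the 15 arrays the 100 probes had ranges from 1.94-fold to 41.7-fold with a median of 3.37-fold. Taken in pairs among themselves, they had a median r of 0.795 (4950 pairs, lowest 0.133). Of the 100, 55 were highest in nostril B of male 6 and 27 in nostril A of the same rat, and 40 were lowest in nostril B of female 7. None had a saturated spot, a spot marked as an outlier or a value at the floor.

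**Figure D2:**
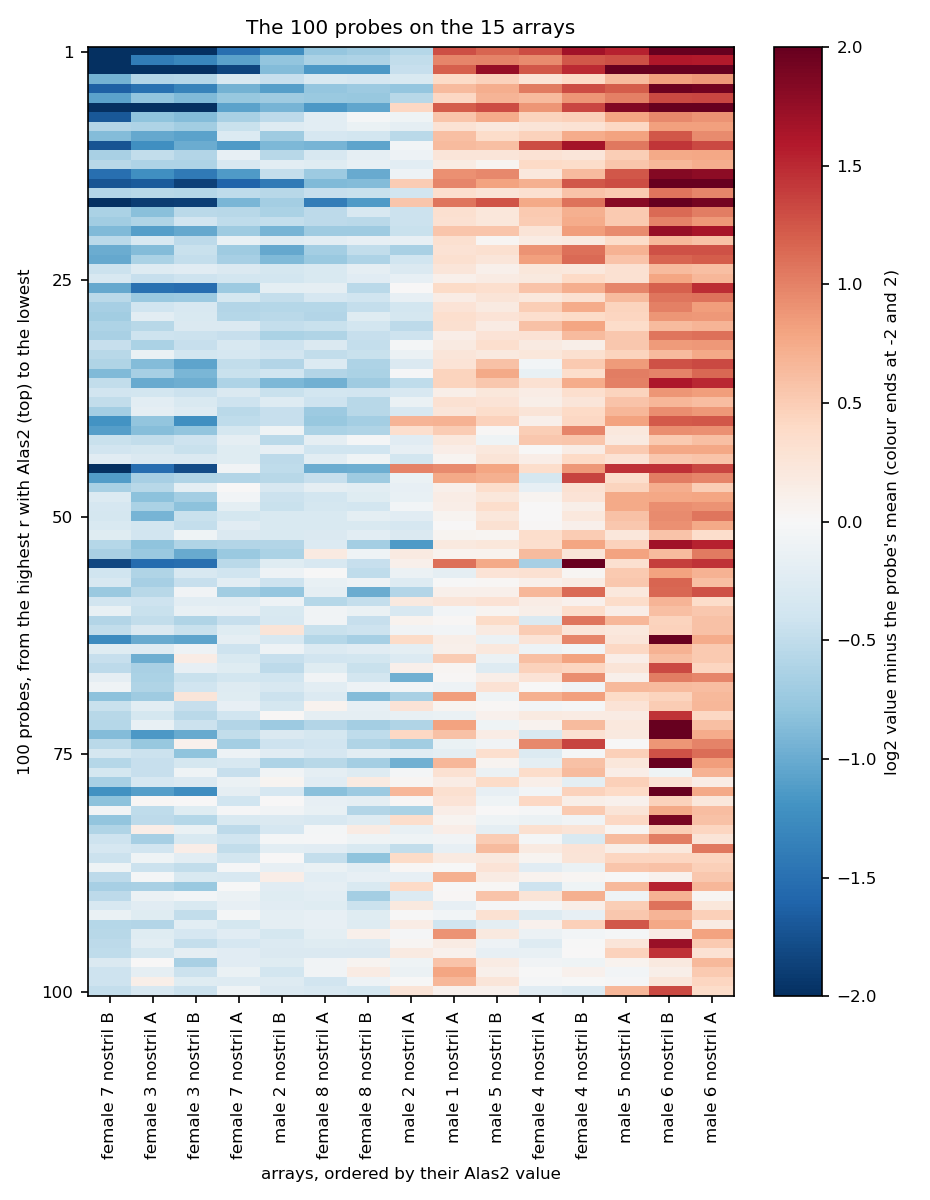
Values of the 100 probes (rows, from the highest r with Alas2 at the top to the lowest) on the 15 arrays (columns, ordered by Alas2), each as the log2 value minus the mean of the probe, with red above and blue below the mean. The 7 arrays of rats 1, 4, 5 and 6 on the right are above the mean for most probes, and in the lower rows, with r under 0.8, nostril B of male 6 is the darkest column.

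The limit of 100 did not fall at a gap in r. The last 5 probes inside were Map4k1 (0.697), a probe without a gene name (A_44_P337592, 0.697), TC543877 (0.696), a second probe without a gene name (A_44_P128820, 0.694) and C1h16orf54 (0.688). The first 5 outside were a predicted transcript on chromosome 4 (0.686), a predicted transcript on chromosome 10 (0.686), Gimap4 (0.680), Arhgap45 (0.679) and Arhgap9 (0.674).

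The globins, the protein chains of hemoglobin, and the chaperone of the alpha chain made up 6 of the 100 probes. These were all of the globin list's probes that were well above background on all arrays. Hbb, an adult beta chain (r = 0.997, slope 0.715), had rat means of 8.51, 6.89, 8.67 and 9.13 in males 1, 2, 5 and 6 and of 6.18, 8.63, 5.84 and 6.91 in females 3, 4, 7 and 8. It put the 8 rats in the same order as Alas2, with rats 1, 4, 5 and 6 above the others. Hbb-b1, a second beta chain (r = 0.988), had a slope of 0.316, and its rat means lay between 9.72 in female 7 and 11.19 in male 6. Hba-a3, an alpha chain (r = 0.968, slope 0.425), had rat means from 11.15 in female 7 to 13.24 in male 6. The theta chain Hbq1 was measured by 2 probes, which had r of 0.955 and 0.924 with Alas2 and of 0.990 with each other. Ahsp, the chaperone that binds free alpha chains (r = 0.897, slope 0.641), had rat means of 5.48, 4.77, 5.65 and 5.93 in males 1, 2, 5 and 6 and of 2.88, 5.14, 3.31 and 3.55 in females 3, 4, 7 and 8. For Ahsp, unlike Alas2, male 2 lay nearer to the other males than to females 3, 7 and 8, and its nostril A (5.52) stood well above nostril B (4.02). In female 7 the nostrils lay further apart still, with 4.47 in nostril A and 2.16 in nostril B. The other 4 probes of the list, named after their values were seen, were not above background on all arrays: Hbe2 had r of 0.847 (7 arrays above background), Hbg1 had -0.050 (9), and of 2 probes of Hbe1 one had 0.582 (5) and the other was never above background.

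Globin genes resemble each other, so their probes were compared base by base. The best ungapped match between the probes of different globin genes was between Hba-a3 (chr10:15560180-15560237, minus strand) and 1 probe of Hbq1 (chr10:15557551-15557716, minus strand), with positions from the array annotation on build rn3. They shared 37 of 54 compared bases, shown in capitals, and the other pairs among these 6 probes shared 18 to 23 bases. The second Hbq1 probe (chr10:15557437-15557496, minus strand) and the Alas2 probe (chrX:39863822-39863881, plus strand) follow in lower case throughout.
Hba-a3 probe: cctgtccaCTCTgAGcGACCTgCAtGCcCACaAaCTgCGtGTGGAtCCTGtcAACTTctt
Hbq1 probe 1: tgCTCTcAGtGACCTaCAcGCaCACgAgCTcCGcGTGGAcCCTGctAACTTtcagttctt
Hbq1 probe 2: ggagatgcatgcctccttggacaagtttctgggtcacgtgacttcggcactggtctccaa
Alas2 probe: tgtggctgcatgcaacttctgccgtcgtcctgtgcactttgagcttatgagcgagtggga
Over the 15 arrays the Hba-a3 probe had r of 0.880 with the Hbq1 probe it resembled and of 0.829 with the other. The part of shared sequence in these signals was not tested.

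Of 20 probes of the list for heme synthesis and transport that were well above background throughout, only 3 had an SD of at least 0.3 and so could be chosen, and 2 of these 3 were members. The third, Slc25a37, an iron carrier of mitochondria, named after its values were seen, had r of -0.024 and values from -0.93 to 3.28 on single arrays. The 20 had a median r of 0.164. Fech, which puts iron into heme (r = 0.960, slope 0.359), had rat means of 4.17, 3.32, 4.22 and 4.93 in males 1, 2, 5 and 6 and of 3.16, 4.46, 3.25 and 3.43 in females 3, 4, 7 and 8. Isca1, an assembly factor for iron-sulfur clusters (r = 0.960, slope 0.323), had rat means of 7.81, 7.01, 7.87 and 8.49 in the males and of 6.91, 7.92, 6.93 and 7.02 in the females, in the same order. For both genes rats 1, 4, 5 and 6 lay above the other 4. Among the brightest genes of the list outside the 100, Alad, the next enzyme of the pathway, had r of -0.031, Urod had -0.505 and -0.287 on its 2 probes, and Glrx5 had 0.384. The 2 probes of the mitochondrial carrier Slc25a39, named after their values were seen, had r of 0.813 and 0.816 but SDs of 0.223 and 0.248, under the limit of 0.3.

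Of the membrane and its skeleton, 9 of 18 probes met the SD limit and 5 of the 9 were members, while the median r of the 18 was 0.010. Slc4a1, the anion exchanger of the red-cell membrane (r = 0.960), had a slope of 0.846 and a 25.9-fold range. Its rat means were 3.99, 2.87, 4.47 and 4.92 in males 1, 2, 5 and 6 and 1.03, 3.85, 1.16 and 1.67 in females 3, 4, 7 and 8. Rats 1, 4, 5 and 6 were again high, and male 2 lay between them and the low females. Rhd, a blood group protein (r = 0.927, slope 0.395), had rat means from 2.31 in female 3 to 4.56 in male 6. The skeleton proteins had lower slopes, with 0.288 for Add2 (an adducin subunit, r = 0.911), 0.224 for Sptb (beta spectrin, r = 0.929) and 0.174 for Epb41 (which joins spectrin to actin, r = 0.842). The 2 probes of Rhag, a partner of the Rh blood group proteins, named after its values were seen, met the limits but had r of -0.115 and -0.095. Among the brightest genes of the list outside the 100, Slc2a1, a glucose carrier, had 0.000, Aqp1, a water channel, had -0.263, and the brighter probe of Tmod1, which caps actin filaments, had -0.425.

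Of iron uptake and red-cell enzymes, 3 of 20 probes met the SD limit and 2 of the 3 were members, with a median r of 0.092 for the 20. Car2, a carbonic anhydrase (r = 0.962, slope 0.247), had rat means from 5.19 in female 3 to 6.50 in male 6. Bpgm, the enzyme that makes the phosphate compound lowering the oxygen affinity of hemoglobin (r = 0.923, slope 0.240), had rat means of 5.95, 5.45, 6.16 and 6.69 in males 1, 2, 5 and 6 and of 5.44, 6.07, 5.49 and 5.45 in females 3, 4, 7 and 8. The low rats lay between 5.44 and 5.49 for Bpgm, whereas for Alas2 they spread from 5.08 to 6.37. Among the brightest of the list, Prdx2, an antioxidant enzyme, had r of -0.376, Aldoa -0.069 and Hagh 0.788 with an SD of 0.276.

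Of maturation and its regulators, 6 of 27 probes met the SD limit and 5 of the 6 were members (median r of the 27, 0.353). Alox15, a lipoxygenase that takes part in the breakdown of mitochondria in reticulocytes (r = 0.990), had the largest slope of the 100, 1.02, and a 38.4-fold range. Its rat means were 3.97, 2.12, 4.73 and 5.10 in males 1, 2, 5 and 6 and 0.74, 4.14, 0.42 and 1.63 in females 3, 4, 7 and 8. The order of the rats for Alox15 was that of Alas2 except that male 2 lay above female 8. Klf1, the erythroid factor that acts on globin genes (r = 0.905, slope 0.430), had rat means of 1.60, 1.01, 1.53 and 2.14 in the males and of -0.10, 1.16, 0.05 and 0.18 in the females. Nfe2, a factor of red cells and megakaryocytes (r = 0.902, slope 0.351), ranged from -0.60 in female 3 to 1.14 in male 6. Tent5c, which lengthens the tails of messenger RNA (r = 0.958, slope 0.327), and Riok3, a kinase (r = 0.878, slope 0.161), completed this set. Tent5c had rat means from 1.67 to 3.20, and Riok3 from 3.22 to 3.98. Over the single arrays Riok3 had the narrowest range of the 100, 1.94-fold. Among the brightest genes of the list, Ubb, a ubiquitin gene, had r of 0.098 and 0.389 on its 2 probes, and Bnip3l, a receptor for the removal of mitochondria, had 0.810 with an SD of 0.206.

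The 5 red-cell lists held 91 probes that were well above background on all arrays, of which 27 met the SD limit and 20 were among the 100. The 7 that met it and were no members were Slc25a37, both probes of Rhag, Aqp1, a second probe of Tmod1 (-0.486), Car1, a carbonic anhydrase (0.601), and Fbxo9 (-0.232), the last 2 and this Tmod1 probe named after their values were seen. On the other 16 lists 93 of 221 met it and 8 were members, and on no list 4047 of 24821 met it and 72 were members. A further 10 red-cell probes had r at or above that of the last member but an SD under 0.3, among them, named after their values were seen, Mkrn1, a ubiquitin ligase (0.867), and Gfi1b, a repressor of erythroid and megakaryocyte cells (0.731). Of 28 red-cell probes that were not well above background on all arrays, 7 had r that high. Also named after their values were seen, Gata1 had r of 0.973 with 10 arrays above background, Epb42, which anchors Slc4a1 to the skeleton, had 0.970 with 12, and the best of the Kel probes had 0.947 with 9, whereas Epor, the receptor for erythropoietin, had 0.454 with 12, and the 2 probes of Sox6 had -0.115 with 12 and 0.281 with 7.

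**Figure D3:**
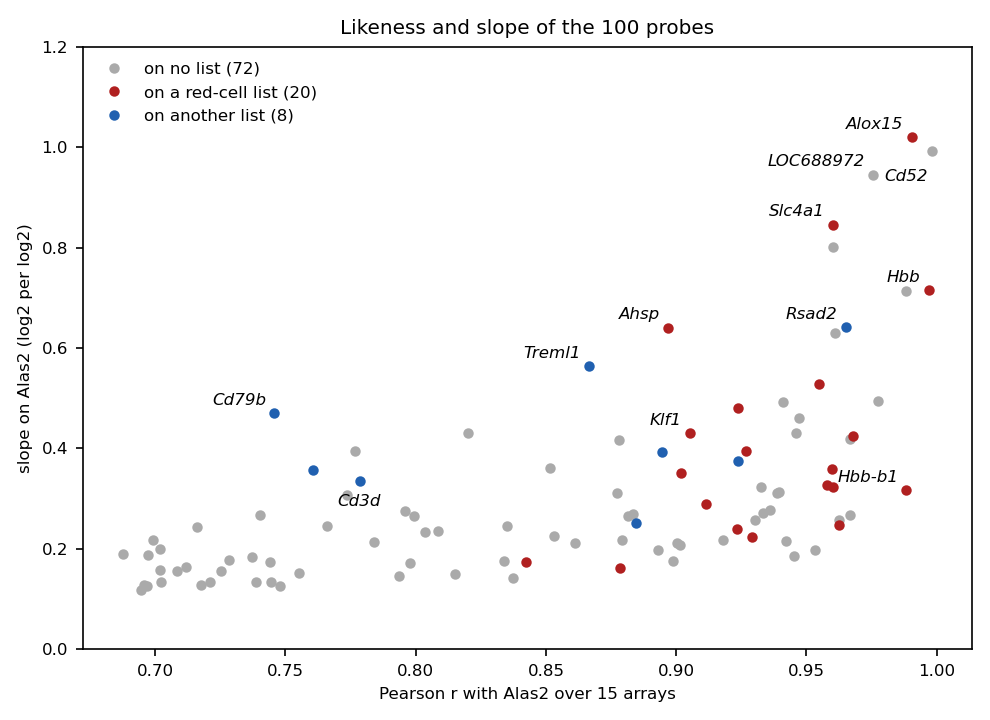
Slope on Alas2 (log2 per log2, vertical) against Pearson r with Alas2 over 15 arrays (horizontal) for the 100 probes, coloured red for the 20 on a red-cell list, blue for the 8 on another list and grey for the 72 on none. Alox15 lies highest at a slope of 1.02, and Hbb-b1 has a slope of 0.316 at r of 0.988.

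Promoters were read where the RefSeq table (build GRCr8) held the gene, as 250 bases before and 50 after the start. Of 55 member genes whose probe lay on the chromosome RefSeq gives, or on an unplaced part, 41 were matched, with 42 promoters. The core that GATA factors can bind, spelled AGATAA and also searched with T as its first letter, stood on either strand in 10 of 42 (23.8%), against 18.9% of all 33469 promoters. CCACACCC, a form of the box bound by Klf1, stood in 3 (7.14%), against 3.22%. TGAGTCA, the core bound by Nfe2 and by AP-1, stood in 5 (11.9%), against 4.63%, and TATAAA stood in 5 (11.9%), against 14.2%. These shares describe letters and not bound sites, and letters that were not found say nothing of a factor.

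The 150 bases before the start are shown for Alas2 and for 4 members, a globin and 3 membrane proteins, picked among those that hold a GATA core or a CCACACCC box so that its place can be compared. Capitals mark the core or the box as read on either strand, so that a match on the other strand appears as its complement. The windows lie at chrX:22895300-22895449 (plus strand) for Alas2, chr1:167663722-167663871 (minus) for Hbb, chr4:120054728-120054877 (plus) for Add2, chr5:152371050-152371199 (plus) for Rhd and chr6:101170279-101170428 (minus) for Sptb, all on GRCr8.
Alas2 promoter: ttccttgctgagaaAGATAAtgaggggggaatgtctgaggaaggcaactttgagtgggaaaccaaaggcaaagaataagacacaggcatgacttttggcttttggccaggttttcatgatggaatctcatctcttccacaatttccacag
Hbb promoter: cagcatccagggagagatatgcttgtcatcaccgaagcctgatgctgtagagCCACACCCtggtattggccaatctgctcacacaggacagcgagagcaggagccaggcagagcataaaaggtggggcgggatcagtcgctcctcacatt
Add2 promoter: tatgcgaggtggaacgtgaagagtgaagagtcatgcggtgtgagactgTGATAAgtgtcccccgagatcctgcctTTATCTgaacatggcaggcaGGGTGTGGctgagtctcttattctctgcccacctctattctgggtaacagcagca
Rhd promoter: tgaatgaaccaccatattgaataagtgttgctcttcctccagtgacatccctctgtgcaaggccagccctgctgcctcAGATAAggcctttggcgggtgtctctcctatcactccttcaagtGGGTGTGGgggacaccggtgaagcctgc
Sptb promoter: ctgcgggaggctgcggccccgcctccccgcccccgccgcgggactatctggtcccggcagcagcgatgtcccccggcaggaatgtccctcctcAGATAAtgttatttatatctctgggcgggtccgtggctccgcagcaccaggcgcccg
Counted from the start, the GATA core began at -136 in Alas2, at -72 in Rhd and at -57 in Sptb. Add2 had cores at -102 and -75 and a box at -55, and Rhd had a box at -28. Hbb had its box at -98 and no GATA core in the window.

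The probe most like Alas2 was Cd52, a small glycoprotein known from the surface of lymphocytes (r = 0.998, slope 0.992). Its rat means were 4.94, 2.76, 5.01 and 6.09 in males 1, 2, 5 and 6 and 1.59, 5.15, 1.45 and 2.91 in females 3, 4, 7 and 8, and its range of 41.7-fold was the widest of the 100. The Cd52 probe (rn3 chr5:152853062-152853121, minus strand) overlapped by 41 bases a probe of the opposite strand for the transcript AA819418, named after its values were seen, which had r of 0.974 with 10 arrays above background. LOC688972, which the array calls similar to glycophorin, a membrane protein of red cells (r = 0.976, slope 0.945), had rat means of 3.25, 1.79, 3.62 and 4.29 in the males and of -0.13, 3.15, 0.05 and 0.95 in the females. Cdc25b, a phosphatase of the cell cycle (r = 0.988, slope 0.714), had rat means from 2.38 in female 3 to 5.74 in male 6. Rbm38, an RNA-binding protein (r = 0.961, slope 0.629), had rat means of 1.01, -0.20, 1.18 and 1.90 in the males and of -1.23, 0.50, -1.23 and -0.78 in the females. Besides LOC688972, the transcripts without a current symbol among the 10 highest r or slopes were BM387057 (r = 0.977, slope 0.494), TC548806 (0.967, 0.267), TC541760 (0.967, 0.420) and BF556330 (0.960, 0.802).

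Of 33 probes of proliferation genes well above background throughout, 7 met the SD limit and 1 was a member, the probe named Tk1 for thymidine kinase (r = 0.884, slope 0.250). Its position on rn3 chromosome 3 is not that of Tk1 in RefSeq, which lies on chromosome 10, so the identity of this probe is uncertain. A probe without a gene name lay 137 bases from it and had r of 0.978 with it.

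Interferon-induced genes gave 2 members, out of 13 probes that met the SD limit among 24 of the interferon and MHC list (median r of the 24, 0.274). Rsad2, an antiviral enzyme (r = 0.965, slope 0.642), had rat means of 3.40, 2.29, 3.60 and 4.15 in males 1, 2, 5 and 6 and of 1.65, 4.25, 1.34 and 1.77 in females 3, 4, 7 and 8. Here female 4 and not male 6 was the highest rat. Ifit1, which binds viral RNA (r = 0.924, slope 0.376), had rat means from 0.91 in female 3 to 2.76 in male 6.

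Platelet genes gave 2 members, which were the 2 that met the SD limit among 5 probes (median r 0.483), with a summed level of 6.10 to 6.44 in males and 5.83 to 6.46 in females, whose r with Alas2 was 0.846. Pf4, a platelet chemokine (r = 0.895), had 2.98 in nostril A and 4.68 in nostril B of female 4, the latter the highest of all 15 arrays. Treml1, a platelet receptor (r = 0.866), had 0.00 and 2.64 in the same nostrils. Alas2 differed far less there, with 8.61 and 8.92. Of 16 platelet probes, 2 were never above background, those of Selp and 1 of Vwf.

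Lymphocyte genes gave 3 members, out of 9 probes that met the SD limit, with the lowest r of those on any list, and nostril B of male 6 was their highest array. Cd3d, of the T cell receptor complex (r = 0.778), had 1.83 in nostril A and 3.28 in nostril B of male 6. Tcrb, the beta chain of that receptor (r = 0.761), had 0.65 and 2.14. Cd79b, of the B cell receptor (r = 0.746), had 0.54 and 3.04, while on the 14 other arrays it did not exceed 0.54. Alas2 was 9.69 and 9.68 in these nostrils. The summed level of 8 T and NK cell probes was 4.88 to 5.99 in males and 5.04 to 5.43 in females. That of 2 B cell probes was 0.00 to 3.31 in males and -0.56 to 0.79 in females. Of the 8 T and NK cell probes only 5 had positive r (median of the 8, 0.332), and their summed level had r of 0.467 with Alas2. Both B cell probes had positive r (median 0.636), with 0.700 for their summed level. Without nostril B of male 6 the r of Cd3d, Tcrb and Cd79b were 0.806, 0.799 and 0.805, and the lowest r among the 100 was 0.642. Of 13 B cell probes, 5 were never above background, those of Rag1, Rag2, Dntt and Jchain, and of 17 T and NK cell probes 5 were never above it, among them those of Cd2 and Cd247. The part of these cells in the results was not tested.

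**Figure D4:**
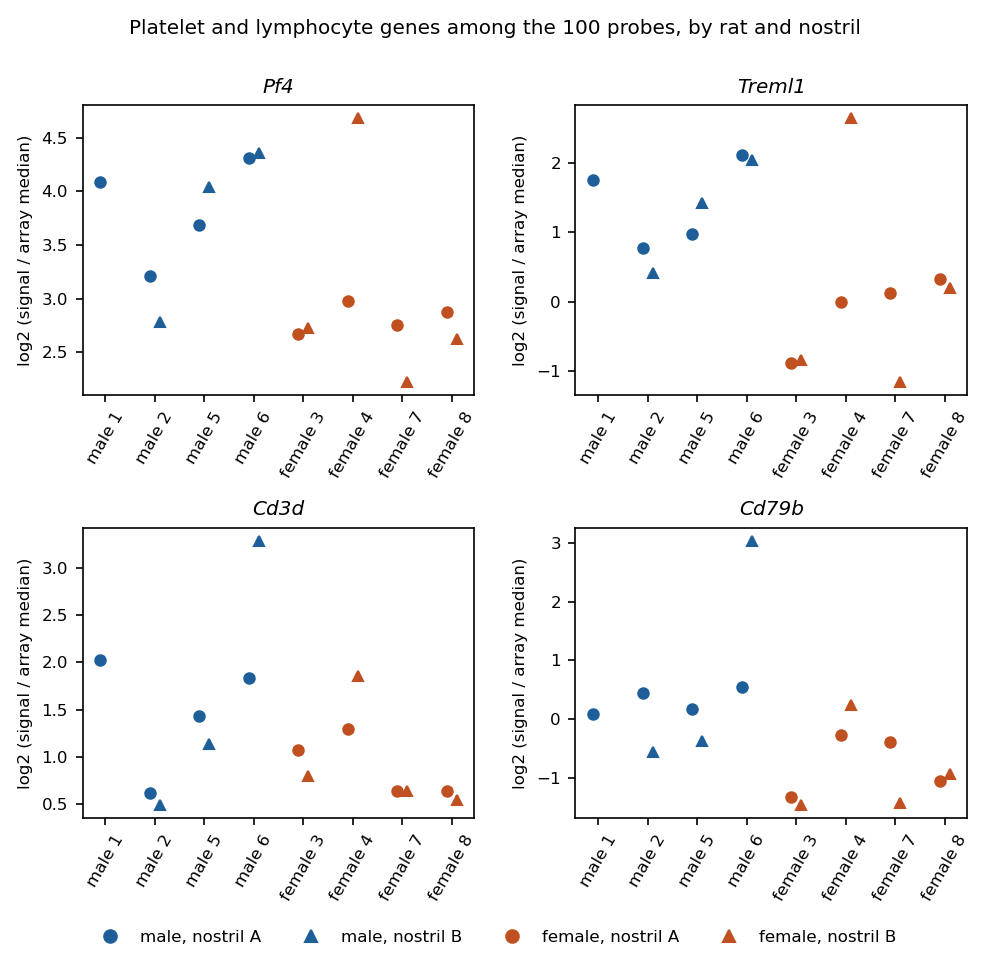
Signals of the platelet genes Pf4 and Treml1 and the lymphocyte genes Cd3d and Cd79b on the 15 arrays, as log2 of the signal over the array median, by rat; circles are nostril A and triangles nostril B, blue is male and orange female. Nostril B of female 4 is highest for both platelet genes (4.68 and 2.64) and nostril B of male 6 for both lymphocyte genes (3.28 and 3.04).

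No member came from the list of neutrophils, where 10 of 11 probes met the SD limit (median r of the 11, 0.464), or from those of bone (13 of 16, 0.054), skeletal muscle (6 of 6, -0.041), macrophages (6 of 17, 0.119) and endothelium (5 of 8, -0.033). Nor did any come from the circadian clock (7 of 17, 0.042), immediate early genes (8 of 19, -0.063) or glucocorticoid targets (5 of 15, -0.230). For the cells of the olfactory epithelium the SD limit left few or no probes to choose, 0 of 13 for mature olfactory neurons (median r -0.209), 2 of 15 for immature neurons and basal cells (0.059) and 2 of 15 for sustentacular cells and glands (-0.158), so that the lack of members there says little. Neutrophil levels were summed at 6.25 to 7.87 in males and 6.21 to 7.19 in females, with r of 0.421 with Alas2, and 4 of their 22 probes, including those of Csf3r and Cxcr2, were never above background.

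Several members lay side by side in the genome, with positions on rn3 and a limit of 100000 bases. Among 12 such pairs, Hbb-b1 and Hbb lay 29395 bases apart and had r of 0.983 with each other, and Hbq1 and Hba-a3 lay 2464 apart with 0.880. BM387057 and AI102812 lay 24 bases apart on opposite strands with 0.949, and AI102812 lay 4385 bases from Tent5c, also on the opposite strand, with 0.978. Pairs from 1 gene were Hbq1 (0.990), Gpx1 (0.984) and Procr (0.946), where Gpx1 is an antioxidant enzyme and Procr a receptor for protein C, both named here after their values were seen. The Gpx1 probes lay on an unplaced part of rn3 chromosome 16, which is not where RefSeq has Gpx1, so their identity is uncertain too. Chromosome 10, with the alpha globin genes, held 14 of the 100 and 7.18% of the 4167 probes, chromosome 1, with the beta globin genes, 15 and 12.7%, and the X chromosome, with Alas2, 2 and 2.74%.

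Other probes of the member genes did not all follow Alas2. The second probe of Slc4a1 had r of 0.807 (4 arrays above background), that of Treml1 0.843 (10) and that of Rsad2 0.882 (2). Of 2 other Ifit1 probes one had 0.870 (10) and the other was never above background. The second probe of Kcnq5, a potassium channel, had r of -0.385 (10), against 0.901 for the member, and that of Tnfrsf14 had 0.493 (12), against 0.777. All these other probes of Slc4a1, Treml1, Rsad2, Ifit1, Kcnq5 and Tnfrsf14 reached the floor of 0.1. Their r therefore rests in part on that fixed value. Those of Kdm6b (0.530 against 0.755), Fam117a (0.578 against 0.837) and Dapk2 (0.774 against 0.798) were above background on all arrays but under the SD limit. For Bach1, a heme-binding repressor, the second probe had r of 0.302, against 0.725 for the member, and for Tfdp2, a partner of E2F factors, 0.155 against 0.945, all 4 well above background on all arrays. Apart from Slc4a1, Treml1, Rsad2 and Ifit1, these genes are named after their values were seen. The reason for the disagreement was not tested.

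The sexes were compared with limma on the 8 rat means, since the study asked how individuals and sexes differ. At an adjusted p under 0.01, 12 of 27625 probes were called (0.0434%), and none of the 100 was, also at 0.05. All 100 were lower in the mean of the females, against 47.3% of all probes, with a median difference of -0.54 on the log2 scale against 0.01. Lower in females at an unadjusted p under 0.05 were 42, against 4.82% of all probes, while 17.3% of all probes passed that p in either direction. Without 1 rat this number lay between 20 and 81. It was 81 without female 4 (3.04% of all probes lower at that p), 78 without male 2 (4.89%), and 20 without female 3 (3.58%), female 7 (5.86%) or male 6 (3.84%). The methods' t-test called 0 of the 100 after adjustment and 10 as lower in females at an unadjusted p under 0.05, against 3.26% of all probes lower and 14% in either direction. With slide as a block over the 15 arrays limma called 0 as well. At an unadjusted p under 0.05, 9 were lower, against 7.80% of all probes. In this fit 3 of the 100 were higher in females and the median difference was -0.41. However, it counted the nostrils of a rat as separate animals. Slide 1 alone held both sexes, with nostril A of female 3 as its only female array. Alas2 had a mean of 8.31 ± 1.45 in males and 6.38 ± 1.69 in females (SD, n = 4 each), a difference of -1.93 (SE 0.89, limma adjusted p = 0.301). Since the members were chosen to follow Alas2, they share this direction with it, and their number is not 100 separate results. The lowest adjusted p was that of Klf1, with 1.57 ± 0.46 in males and 0.32 ± 0.57 in females, a difference of -1.25 (SE 0.30, limma adjusted p = 0.109). Ahsp differed by -1.74 (SE 0.44, limma adjusted p = 0.116), and Slc4a1 by -2.13 (SE 0.63, limma adjusted p = 0.145). Cd52 differed by -1.93 (SE 0.88, limma adjusted p = 0.301). Within each sex the rats were spread widely: female 4 was the highest female in 93 of the 100, male 6 the highest male in 91 and male 2 the lowest male in 89.

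Between rats of the same sex, limma called 770 of 27574 probes at an adjusted p under 0.01 (2.79%) and 44 of the 100, with the spread between nostrils as the error. This is a description, since the choice used these differences. Each slide held 2 or 3 rats, and with slide as a block, which compares only rats that share a slide, 0 of the 100 were called at 1% (1 of 27574 probes) and 12 at 5% (39 of 27574). At 1% the number was 27 without male 2 (1.41% of all probes), 27 without male 6 (2.37%) and 28 without female 4 (1.39%).

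Between nostrils A and B, no probe was called in 7 rats with the rat as a block (0%), and the lowest limma adjusted p among the 100 was 0.785. At an unadjusted p under 0.05 there were 5 of the 100, against 5.84% of all probes. Alas2 differed by 0.28 between A and B, with A higher (limma adjusted p = 0.792). Nostril A was the higher side in the mean for 69 of the 100, against 44.7% of all probes, but the choice by r over the same arrays used these differences, so nothing is read from this count.

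The difference between the nostrils of a rat gave values that a choice by rat means did not use. In female 3 the nostrils lay on slides 1 and 2. Its difference, here and in the test of nostrils, is thus also a difference between slides. The 100 probes with the highest r over the 8 rat means shared 92 with the members. For 90 of them the A minus B difference had r above 0 with that of Alas2 over 7 rats, with a median r of 0.496, whereas this held for 48.6% of all 3139 probes that met the same limits, with a median r of -0.013. Female 7 had the widest difference in Alas2 (5.79 in A and 4.38 in B). With the 100 probes chosen again without this rat, 93 had r above 0, against 53.2% of all. In that rat Hbb was 6.46 in A and 5.22 in B, and Hba-a3 was 11.67 and 10.63.

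**Figure D5:**
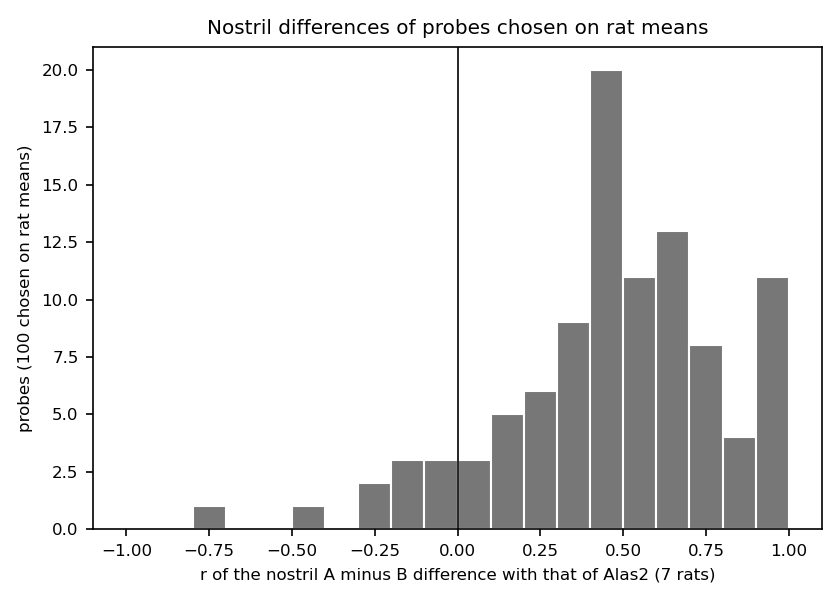
Number of probes (vertical) by the r of their nostril A minus B difference with that of Alas2 over 7 rats (horizontal, steps of 0.1), for the 100 probes chosen on the 8 rat means. Most lie right of the line at 0, 90 of 100 in all, with a median of 0.496.

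Slide and rat could be told apart only in part, since each rat but female 3 lay on 1 slide. Within slide 1, where Alas2 ran from 5.23 to 8.51, all 100 had a positive slope on Alas2 (median 0.231), against 45.2% of the 4167 probes. Within slide 2 (5.37 to 8.92) all 100 did as well (median 0.212), against 48.6%. Within slide 3 (8.57 to 9.69) 98 did (median 0.562), against 55.0%, and within slide 4 (4.38 to 6.38) 84 did (median 0.111), against 51.1%. After each probe was centred on its slide mean, the median r of the 100 was 0.816 and the lowest 0.223. After centring on the mean of each sex the median was 0.849 and the lowest 0.505.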

How the data were processed

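Olfactory epithelium of 8 rats was hybridised to 15 one-colour Agilent rat arrays of 60-base probes, 7 from males and 8 from females, 1 for each nostril but nostril B of male 1. The deposited intensity values are scanner output of Agilent Feature Extraction (version 9.5.1.1 per the file headers), with the background subtracted within each array and no scaling between arrays. A table deposited by the authors holds each signal as a ratio to the array median and then to the probe's median, and was used as an alternative. Its scaling is that of the study's methods.

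Processed signals of spots with the same probe were averaged, divided by the array median, floored at 0.1 of it and taken as log2. Probes had to be well above background on all 15 arrays for the choice of members, and on at least 7 for the tests, where probes without a value on an array were left out of fits over arrays. The 100 probes with the highest Pearson r with Alas2 (SD at least 0.3) were taken. Sexes were compared on rat means, nostrils with rat as a block and rats by an F test, all with limma 3.58.1 in R 4.3.3 (eBayes with trend, Benjamini-Hochberg, 1% false discovery rate), and the scripts were tested on simulated data. Python 3.11.15 with numpy 2.4.6 and pandas 2.3.3 did the rest. The number of arrays limits the precision.

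Members and gene lists were chosen with earlier results of these data known. Named were Alas2, members on the 21 lists, the 10 highest r, the 10 largest slopes, the last 5 probes inside and the first 5 outside the limit, and list genes with the highest mean that were no members (up to 4 a list); others are said to be named after their values were seen. Current symbols and promoters came from RefSeq (GRCr8); probe positions are those of the array on rn3, and exons were not used here. Nostrils of a rat are not independent animals. Alternatives were other scalings (75th percentile, quantile), normexp with an offset of 50, the ratio table, floors, SD limits of 0.2 and 0.5, Spearman rho, rat means, centring on slide or sex, slide and rat as blocks, and leaving out each rat.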

Additional observations from a re-analysis of the deposited data

Results flagged for a closer look

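A rat stood apart from the others of its group by Dixon's ratio (the gap to the nearest value over the whole range) in 15 of 126 sets of values of the named probes, where chance gives about 5%. The critical ratios are 0.829 for 4 rats and 0.568 for the nostril differences of 7 rats, and no cause was tested.

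Among the 4 females, female 4 was apart and high for Riok3 (ratio 0.949, rat mean 3.95), Tent5c (0.914, 2.89), Bpgm (0.911, 6.07), BM387057 (0.8998, 7.89), Isca1 (0.893, 7.92), Nfe2 (0.871, 0.94) and Rsad2 (0.853, 4.25). Among the 4 males, male 6 was apart and high for Cd79b (0.894, 1.79). For the nostril A minus B difference, female 7 was apart for Hbb (0.609, difference 1.24) and Hbb-b1 (0.612, 0.64), and male 2 for BF556330 (0.581, 1.93). Female 4 was apart for Rhd (0.688, -0.58), Ifit1 (0.581, -0.49) and Pf4 (0.601, -1.71), with nostril B the higher side. Male 6 was apart for C1h16orf54 (0.652, -0.95). These probes follow Alas2 by choice, so their flags are not separate results.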

How the results depend on the processing

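Of the 100 members, 97 were chosen again with the 75th percentile, 96 with quantile scaling, 70 with normexp, 100 from the ratio table, 87 with Spearman rho, 82 when centred on sex, but only 58 when centred on slide and 56 with an SD limit of 0.5, where fewer probes could be chosen. Leaving out 1 rat at a time kept 80 to 94, and leaving out nostril B of male 6, an alternative added after seeing the data, kept 87. The median slope of 0.257 was 0.181 with normexp and 0.225 when centred on slide, and 0.220 (without male 6) to 0.281 (without female 7) when 1 rat was left out. Between the sexes no member was called at 1% under the other alternatives, whereas 3 were when the 15 arrays were taken as independent, which counts the nostrils of a rat as separate animals. At 5%, 26 members were called with arrays as independent (12.8% of all probes). With rat as a random block 5 were called at 5% (3.55%), and without female 4 1 was (0.0579%). Over all probes the 12 calls between the sexes were 4 to 21 under most alternatives, and the t-test gave 5. They were 656 with slide as a block and 1060 with arrays as independent. Both of these fits counted the nostrils of a rat as separate animals. Between rats, 44 members were called (2.79% of all probes), 69 at 5% (15.9%), 0 with slide as a block, and 27 to 51 without 1 rat (178 to 919 of all probes). Between nostrils 0 were called with and with no replicate block, the rat being the block. The nostril differences had r above 0 for 90 probes, and for 91 with the 75th percentile. With the probes chosen again without 1 rat the number was 84 to 94, against 45.7% to 53.2% of all probes that met the limits. No paired analysis was possible because males and females share no rat number. All 100 members were lower in females in the mean, but 3 were higher with slide as a block, and 4 without male 6, 2 without female 7 and 1 without female 8. The limits decide the members too: of the probes with r as high as the last member, 50 were left out as not above background on all arrays and 138 as having an SD under 0.3. The cause of these shifts was not tested.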

Other observations

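Of the 4167 probes that met the limits, 10 had r of -0.9 or below with Alas2, the lowest being -0.987, against 43 with r of 0.9 or above. Named after its values were seen, Lss, the lanosterol synthase of cholesterol synthesis, was among the 10 (-0.917). Over the 15 arrays their signals were high where that of Alas2 was low.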
